A study of Mus musculus with 18 samples.

Results

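The 2 mature arms of the microRNA miR-22, miR-22-3p and miR-22-5p, were followed across liver samples of mice, all wild type and of the inbred strain C57BL/6J. They were chosen by name as 2 of the 758 mature mouse miRNAs listed in the small RNA table, together with the ratio of 1 arm to the other. Small RNA had been sequenced in 18 libraries that fall into 6 groups of 3, named HF+CR, HF+Ex, HF, LF+CR, LF+Ex and LF. The labels do not spell these names out; here HF is taken to mean a high-fat diet, LF a low-fat diet, CR restricted calories and Ex exercise. Regimens began at an age of 5 weeks in every group, and livers were taken at 62 weeks. The HF and LF groups had the diet alone and serve as the controls for CR and Ex on that diet. Whether replicate libraries stem from different animals is not stated, so each p-value reflects the spread among the libraries as deposited, and that spread could be technical.

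A microRNA is cut from a hairpin precursor, and each of the hairpin's 2 strands can yield a mature product, named 5p or 3p by its side. One arm is usually loaded into the Argonaute silencing complex as the guide, while the other is mostly degraded. The seed, bases 2 to 8 of the guide, pairs with sites in messenger RNAs and lowers their output. miR-22-3p is the usual guide of its hairpin and is abundant in liver, heart and skeletal muscle. Its reported targets include the deacetylases Sirt1 and Hdac4 and, in mouse liver, the metabolic hormone gene Fgf21. For this reason it has been studied in hepatic lipid and glucose metabolism.

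The sequences below show where the arms lie and what sets their targeting. They come from RefSeq on build GRCm38.p6. The hairpin, gene Mir22, spans chr11:75463716-75463810 on the plus strand, with miR-22-5p and then miR-22-3p in capitals:
Mir22 hairpin: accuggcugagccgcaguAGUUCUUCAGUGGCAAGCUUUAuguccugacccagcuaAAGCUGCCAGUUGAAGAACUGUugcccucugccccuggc
The mature arms are each 22 bases long, and here the capitals mark the seed:
mmu-miR-22-3p: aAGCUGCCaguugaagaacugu
mmu-miR-22-5p: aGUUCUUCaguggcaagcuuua
miR-22-3p covers chr11:75463772-75463793 and miR-22-5p covers chr11:75463734-75463755. The GENCODE annotation of GRCm38 places the whole hairpin inside exon 2 of both annotated transcripts of Mir22hg, a long non-coding RNA gene at chr11:75461539-75466676 on the same strand. The nearest miRNA gene on that chromosome with a listed product was Mir132, 289969 bases upstream. Among the 1679 mature names in the RefSeq table, 0 other names shared the seed of miR-22-3p and 0 shared that of miR-22-5p. The listed miRNAs closest in sequence were 9 edits away from miR-22-3p (miR-29b-3p) and 8 edits away from miR-22-5p (miR-103-2-5p), of 605 listed names compared. Each arm was therefore a family of its own among the names compared, with no near-identical copy there. Listed names outside those 605 were not compared.

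The libraries held 2.38 to 10.5 megareads on listed miRNAs, with a median of 6.67 megareads. Values are in RPM, reads scaled by the authors to a common library total, so a level is a share and moves when other abundant miRNAs move. Hepatocyte miRNAs, the check of the tissue label, were high: 9 listed members of 10, among them miR-122-5p, the main hepatocyte miRNA, summed to between 351994 and 476076 RPM in every library. Tests used limma on log2(RPM + 1) over the 351 miRNAs with at least 5 RPM in at least 3 libraries, with all 18 libraries in 1 fit, and a call is an adjusted p under 0.05. Both arms of miR-22 passed that filter, with every library far above it.

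miR-22-3p ranked 22nd of the 351 tested miRNAs by mean level. It averaged 9750 RPM over the 18 libraries, between 6980 and 14404 RPM, and took 0.720% to 1.49% of the RPM of listed miRNAs. Just above it in mean level were the let-7 family members let-7b-5p at 9768 RPM and let-7d-5p at 10574 RPM, and miR-103-3p, which targets insulin signalling, at 10656 RPM. Just below were miR-26b-5p at 9579 RPM and both arms of the endothelial miR-126, miR-126-3p at 9017 RPM and miR-126-5p at 7728 RPM. miR-22-5p ranked 91st, with a mean of 408 RPM and a range of 290 to 548 RPM. Counting error was small for both arms, since a library held between 28997 and 98438 reads of miR-22-3p and between 1061 and 5111 reads of miR-22-5p.

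The highest levels of the guide arm were in HF-diet livers, and the HF groups were also the more scattered. miR-22-3p stood at 12782, 13361 and 10204 RPM in HF+CR livers, a mean of 12116 ± 1681 RPM (SD, n = 3 in every group). HF+Ex livers had 11787, 6980 and 8061 RPM, a mean of 8943 ± 2522 RPM. HF livers had 9763, 14404 and 11019 RPM, a mean of 11729 ± 2401 RPM.
LF+CR livers had 8117, 8791 and 7583 RPM of miR-22-3p, a mean of 8164 ± 605 RPM. LF+Ex livers had 8809, 9118 and 9216 RPM, a mean of 9047 ± 213 RPM, the tightest of the groups. LF livers had 8121, 7611 and 9777 RPM, a mean of 8503 ± 1132 RPM. From high to low the means ran HF+CR, HF, LF+Ex, HF+Ex, LF and LF+CR. Of the 5 pairs of neighbours in that order, the ranges did not overlap only between HF and LF+Ex. Within HF+Ex the first library lay far above the other 2, at the level of the HF and HF+CR libraries.

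**Figure D1:**
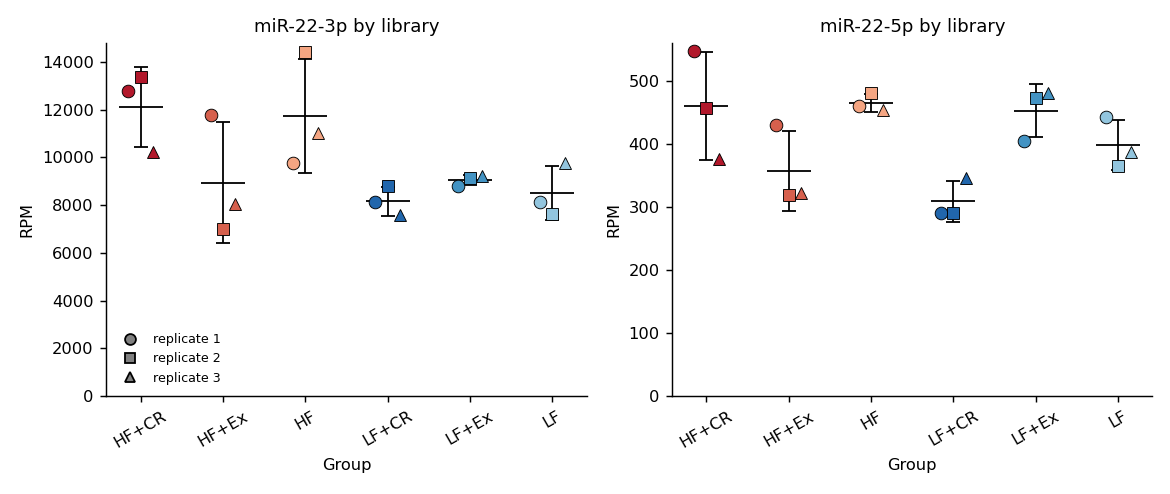
RPM of miR-22-3p (left) and miR-22-5p (right) in each of the 18 libraries, by group; horizontal bars are group means and error bars are 1 SD (n = 3). The 3p arm reaches 14404 RPM in HF and stays at or below 9777 RPM in the LF, LF+CR and LF+Ex libraries, while the 5p arm is lowest in LF+CR, at 290 to 347 RPM.

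The 5p arm had another order. miR-22-5p stood at 548, 457 and 376 RPM in HF+CR livers (460 ± 85.9 RPM), at 431, 319 and 323 RPM in HF+Ex livers (358 ± 63.6 RPM) and at 460, 481 and 455 RPM in HF livers (465 ± 13.9 RPM). LF+CR livers had 291, 290 and 347 RPM (309 ± 32.5 RPM), LF+Ex livers 406, 473 and 482 RPM (454 ± 41.7 RPM) and LF livers 443, 366 and 388 RPM (399 ± 39.5 RPM). HF, HF+CR and LF+Ex had the high means, and LF+CR the low one; in the order HF, HF+CR, LF+Ex, LF, HF+Ex, LF+CR each neighbouring pair of ranges overlapped. Both arms varied less between libraries of a group than the median miRNA tested. The within-group SD on the log2 scale was 0.23 for miR-22-3p and 0.18 for miR-22-5p, the 79th and 36th lowest of 351, where the median miRNA had 0.34. By mean level the arms ranked 22nd and 91st, and spread was not compared among miRNAs of like level.

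Across the 18 libraries the arms moved together. On log2(RPM + 1), Pearson's r was 0.678 (permutation p = 0.00160) and Spearman's rho was 0.699 (permutation p = 0.00192). The permutation shuffled all 18 libraries without regard to group, so differences between groups enter these p-values. Without HF 2 and HF+CR 2, the libraries farthest from the median level of miR-22-3p, r was 0.664. Over deviations from the group means r was 0.558, with no p computed. The likeness was not particular to the pair: at least 5 other miRNAs had an r of 0.758 or more with miR-22-3p. For miR-22-5p at least 5 others had 0.755 or more. The arms share a precursor and a library total, and both are shares of the same reads. This was the only relation of this kind that was tested.

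The effect of the diet was read from HF against LF livers within each regimen and over all 3 regimens. miR-22-3p was higher on HF diet averaged over the regimens, by 0.32 on the log2 scale (SE 0.11, 95% interval 0.09 to 0.55), a 1.25-fold difference. It passed the test narrowly (limma adjusted p = 0.0494), and its unadjusted p ranked 63rd of 351. Of the 9 HF-diet libraries 6 lay above every LF-diet library, and none of the 9 LF-diet libraries lay below every HF-diet one. In the same comparison 18.5% of the 351 miRNAs were called, 56 of them higher and 9 lower, so a call was common among the miRNAs tested. miR-22-5p was at 0.15 (SE 0.10, 95% interval -0.06 to 0.35) and did not pass (limma adjusted p = 0.299). In bulk tissue, fewer cells of a type and less RNA per cell cannot be told apart.

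The call of miR-22-3p depended on how the libraries are scaled. It also lay near the threshold, and leaving out 1 library lost it in most fits. Over the 351 miRNAs the median log2 difference stood at 0.19. Rescaling by median-of-ratios size factors brought that median to -0.00, the split of calls to 26 higher and 23 lower, and miR-22-3p to 0.11 (limma adjusted p = 0.537), and it brought miR-22-5p to -0.06. With each library left out in turn the call was kept in 4 of 18 fits, those without LF 3, HF 1, HF+CR 3 or HF+Ex 2. In the other 14 it was lost, with an estimate between 0.25 and 0.34 and an adjusted p of at most 0.101. An exact permutation of the diet labels within each regimen gave a two-sided p of 0.0238 for miR-22-3p and 0.275 for miR-22-5p over 8000 arrangements, where the smallest possible p is 0.00025.

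By regimen the diet estimates differed. The differences between the diets in the CR and Ex effects, given below, were not called for either arm (limma adjusted p at least 0.218). In the diet-alone groups, HF against LF, miR-22-3p was at 0.45 (SE 0.19, limma adjusted p = 0.352) and miR-22-5p at 0.23 (SE 0.17, adjusted p = 0.586), in a comparison where 0.285% of miRNAs were called. All 3 HF libraries lay above every LF library for miR-22-5p, and 2 of 3 did for miR-22-3p.
Under CR, in a comparison added after the values were seen, miR-22-5p was higher in HF+CR against LF+CR livers, by 0.56 (SE 0.17, limma adjusted p = 0.0497), and miR-22-3p was at 0.56 without passing (SE 0.19, limma adjusted p = 0.0651). All 3 HF+CR libraries lay above every LF+CR library for each arm. Of the 351 miRNAs 10.5% were called there, 32 higher, miR-22-5p among them, and 5 lower. The median over all miRNAs was 0.38 (0.05 after rescaling, with 6 called higher and 19 lower); after rescaling miR-22-3p was at 0.23 (limma adjusted p = 0.539) and miR-22-5p at 0.23 (limma adjusted p = 0.502). With 1 library left out, the call of miR-22-5p was kept in 2 of 6 fits, those without HF+CR 3 or LF+CR 3, and its estimate ranged from 0.43 to 0.70.
Under Ex, also added after the values were seen, neither arm passed. miR-22-3p was at -0.05 (SE 0.19, 95% interval -0.45 to 0.34, limma adjusted p = 0.856) and miR-22-5p at -0.35 (SE 0.17, 95% interval -0.71 to 0.01, limma adjusted p = 0.179) in HF+Ex against LF+Ex livers, where 8.26% of miRNAs were called (21 higher and 8 lower, or 14 and 20 after rescaling).

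The effect of CR was read against the diet alone. miR-22-3p did not pass on either diet: it was at -0.05 (SE 0.19, limma adjusted p = 0.885) in LF+CR against LF livers and at 0.06 (SE 0.19, limma adjusted p = 0.933) in HF+CR against HF livers, where limma called 0 miRNAs (22 without HF+CR 3) and 53 had an unadjusted p under 0.05. Averaged over both diets miR-22-3p was at 0.00 (95% interval -0.28 to 0.28, limma adjusted p = 0.993) and miR-22-5p at -0.20 (95% interval -0.46 to 0.06, limma adjusted p = 0.296). In that average 6.55% of miRNAs were called, 23 in number, against 0 without HF 2 and 78 without HF+CR 3. miR-22-5p was at -0.37 (SE 0.17, 95% interval -0.73 to -0.00) in LF+CR against LF livers, with all 3 LF+CR libraries below every LF library. Its limma adjusted p was 0.167, in a comparison where 6.27% of miRNAs were called (2 higher and 20 lower, or 7 and 7 after rescaling) and the median of all was -0.32; after rescaling miR-22-5p was at -0.03 and miR-22-3p at 0.28. On HF diet miR-22-5p was at -0.03 (SE 0.17, limma adjusted p = 0.963). The difference between the diets in the CR effect was 0.11 for miR-22-3p (SE 0.26, adjusted p = 0.841) and 0.33 for miR-22-5p (SE 0.24, adjusted p = 0.530), with 0.855% of miRNAs called.

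The Ex estimates were below 0 on HF diet and above 0 on LF diet, and passed on neither. In HF+Ex against HF livers miR-22-3p was at -0.41 (SE 0.19, unadjusted p = 0.0438, limma adjusted p = 0.545), with 2 of 3 HF+Ex libraries below every HF library. miR-22-5p was at -0.39 (SE 0.17, unadjusted p = 0.0362, limma adjusted p = 0.525), with all 3 below. Of the 351 miRNAs 0.855% were called there. Without HF+Ex 1, the library that stood apart, miR-22-3p was at -0.63 (limma adjusted p = 0.0782).
In LF+Ex against LF livers miR-22-3p was at 0.10 (SE 0.19, limma adjusted p = 0.810) and miR-22-5p at 0.18 (SE 0.17, limma adjusted p = 0.606), in a comparison where limma called 0 of 351 miRNAs, 41 had an unadjusted p under 0.05, and limma with voom weights called 1. The difference between the diets in the Ex effect was -0.51 for miR-22-3p (SE 0.26, adjusted p = 0.361) and -0.58 for miR-22-5p (SE 0.24, unadjusted p = 0.0301, adjusted p = 0.218). Averaged over both diets the Ex effect was -0.16 for miR-22-3p (95% interval -0.44 to 0.12) and -0.10 for miR-22-5p (95% interval -0.36 to 0.15). In that average limma called 0 of 351 miRNAs, and 12 had an unadjusted p under 0.05. A p that misses the threshold does not show that the arms were alike with and without Ex.

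**Figure D2:**
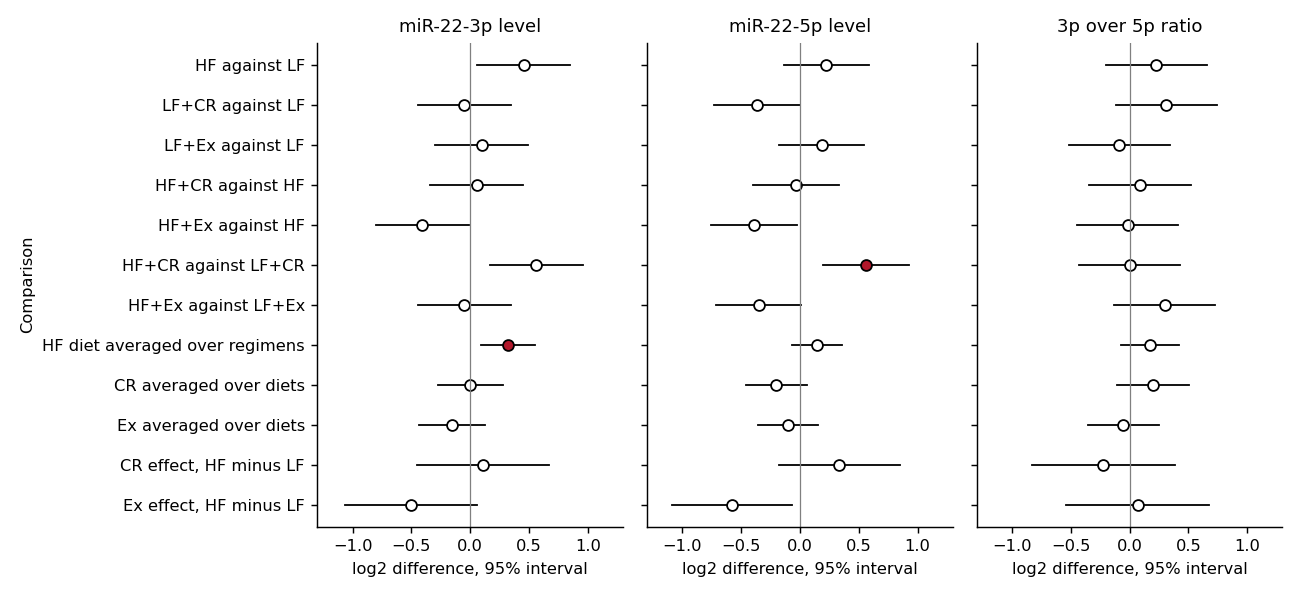
Estimated log2 difference (points) with its 95% interval (lines) for miR-22-3p, miR-22-5p and their ratio in each comparison; filled points passed an adjusted p under 0.05. The filled points are miR-22-3p at 0.32 for HF diet averaged over regimens and miR-22-5p at 0.56 for HF+CR against LF+CR.

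The balance of the arms was then compared, since a ratio within a library does not depend on the library total. In each library miR-22-3p exceeded miR-22-5p by 18.3 to 30.3 times, so the 5p arm made up 3.19% to 5.17% of miR-22 reads. The ratio was 23.3, 29.2 and 27.1 in HF+CR livers, 27.3, 21.9 and 24.9 in HF+Ex livers and 21.2, 29.9 and 24.2 in HF livers. It was 27.9, 30.3 and 21.9 in LF+CR livers, 21.7, 19.3 and 19.1 in LF+Ex livers and 18.3, 20.8 and 25.2 in LF livers. The group means were highest in LF+CR, at 26.7, and lowest in LF+Ex, at 20.04, with each neighbouring pair of ranges overlapping.
Libraries of 1 group differed by more than counting error. The 5p arm made up 5.17% of miR-22 reads in LF 1 (exact 95% binomial interval 5.00% to 5.34%) and 3.82% in LF 3 (3.70% to 3.94%). In HF+Ex 1, the shallowest library, it made up 3.53% (3.32% to 3.74%). These intervals cover counting error only, since reads without molecular identifiers are not independent molecules.

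**Figure D3:**
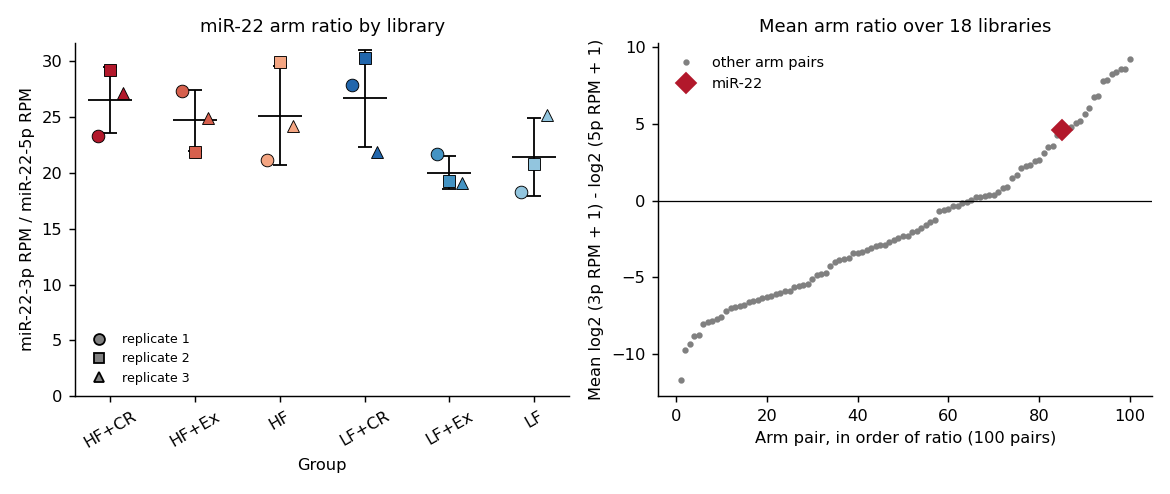
Left, ratio of miR-22-3p to miR-22-5p RPM in each library by group, with group mean and 1 SD (n = 3); right, the mean log2 arm ratio of 100 arm pairs in rank order, with miR-22 marked. The miR-22 ratio lies between 18.3 and 30.3 in every library, and its mean log2 ratio of 4.57 is among the higher ones.

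Arm ratios were fitted in limma over the 100 hairpins whose arms both passed the filter. miR-22 had a mean log2 ratio of 4.57 and was the 16th richest in its 3p arm, among 36 hairpins with more 3p than 5p. Its neighbours in that order were the mitochondrial regulator miR-378a at 4.80 and the erythroid miR-144 at 4.68 above, and miR-27a at 4.28 and miR-187 at 3.59 below. Its within-group SD, 0.20, was the 8th lowest of 100, where the median was 0.32. The balance of the arms was thus among the steadier ones in this table.
No comparison called the arm ratio of miR-22. Averaged over regimens it was at 0.18 on HF diet (SE 0.12, 95% interval -0.07 to 0.42, limma adjusted p = 0.408), where limma called 0 of 100 pairs and 17 had an unadjusted p under 0.05. None of the 9 HF-diet libraries lay above every LF-diet library, and 4 of 9 LF-diet libraries lay below every HF-diet one. Averaged over diets it was at 0.20 with CR (SE 0.15, 95% interval -0.10 to 0.50, limma adjusted p = 0.462) and at -0.05 with Ex (SE 0.15, 95% interval -0.36 to 0.25, limma adjusted p = 0.923). The largest estimate was 0.31 in LF+CR against LF livers (SE 0.21, limma adjusted p = 0.470). Arm pairs of other hairpins were called in the Ex comparisons: 13% of pairs in HF+Ex against LF+Ex, where miR-22 was at 0.30 (SE 0.21, limma adjusted p = 0.363) with all 3 HF+Ex libraries above every LF+Ex library, 4.0% in HF+Ex against HF, where it was at -0.02 (adjusted p = 0.998), and 1.0% in LF+Ex against LF, where it was at -0.09 (adjusted p = 0.867). In the difference between the diets in the Ex effect 11% were called and miR-22 was at 0.07 (SE 0.29, limma adjusted p = 0.873). With 1 library left out these counts of pairs ranged from 2 to 10, from 0 to 3, were 0 throughout, and ranged from 6 to 12, in the order given, and with no filter the last was 3 of 251.

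Among HF-diet libraries miR-22-3p tended to be higher in shallower ones and in those rich in a fragment-like entry. miR-690, one of a list of entries that may be pieces of other RNAs, was above 100 RPM in 5 libraries: HF+CR 1, 2 and 3, HF+Ex 1 and HF 2, at 300, 111, 134, 387 and 110 RPM. miR-22-3p was between 10204 and 14404 RPM in those libraries. In the other 4 HF-diet libraries, HF+Ex 2 and 3 and HF 1 and 3, miR-690 was at 11.8, 13.6, 22.0 and 33.1 RPM and miR-22-3p at 6980, 8061, 9763 and 11019 RPM. In the 9 LF-diet libraries miR-690 was at 11.7 to 36.4 RPM and miR-22-3p at 7583 to 9777 RPM, and the tendency was not seen. The shallowest of them, LF+CR 3, had the lowest miR-22-3p, 7583 RPM, with miR-690 at 34.0 RPM. The deepest, LF+Ex 2, had miR-22-3p at 9118 RPM and miR-690 at 11.7 RPM. The 5 libraries with miR-690 above 100 RPM held 2.38 to 5.50 megareads, against 5.12 to 10.5 megareads in LF-diet libraries. The other 4 HF-diet libraries held 6.28 to 8.69 megareads. The whole list, 6 listed of 8, had summed levels, in RPM, of 114 to 304 (HF+CR), 12.7 to 391 (HF+Ex), 23.1 to 117 (HF), 30.4 to 36.0 (LF+CR), 13.2 to 37.9 (LF+Ex) and 18.1 to 23.98 (LF). Of these 6, 4 were at 0 in at least 1 library and 1 passed the filter. The part of depth and of what raised miR-690 in the diet result was not tested. Without the 3 shallowest libraries, HF+Ex 1, HF+CR 3 and HF+CR 1, miR-22-3p was at 0.30. Those 3 are all on HF diet, and HF+CR was left with 1 library. Calls lost in that fit, also below, thus do not separate depth from having fewer libraries.

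**Figure D4:**
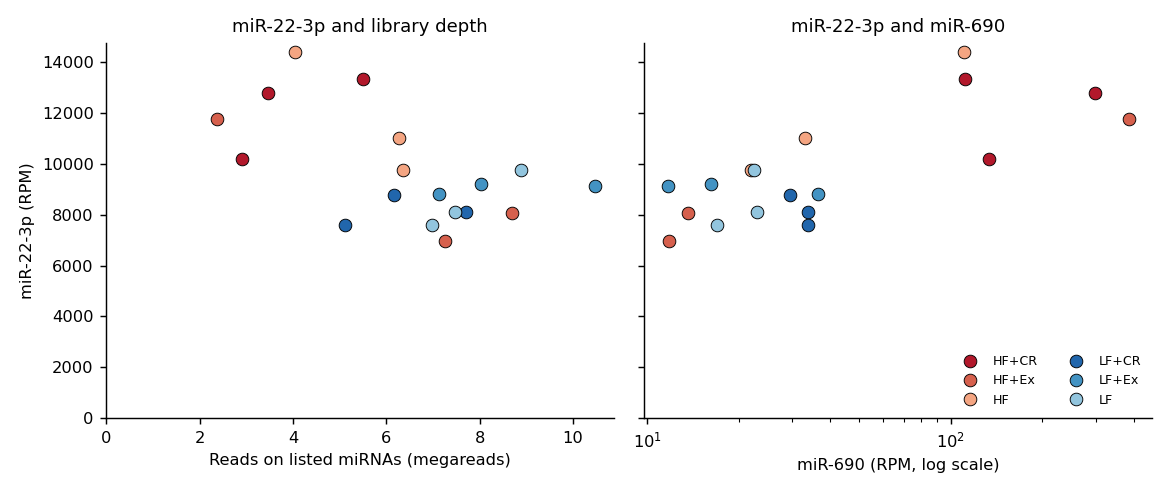
miR-22-3p RPM against reads on listed miRNAs in megareads (left) and against miR-690 RPM on a log scale (right); each point is a library, coloured by group. The libraries with miR-690 above 100 RPM have 10204 RPM of miR-22-3p or more.

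Markers of other cells were read against the same background of 18.5% called. Of 9 leukocyte and Kupffer cell miRNAs 6 rose on HF diet averaged over the regimens and 0 fell (median 0.79, against 0.19 over all 351). They include miR-223-3p of myeloid cells at 1.16 (limma adjusted p = 0.0132), the pan-leukocyte miR-142-3p at 0.79 (0.0170) and miR-155-5p of activated immune cells at 1.57 (0.00852). The list had summed levels, in RPM, of 3635 to 9766 (HF+CR), 5617 to 7925 (HF+Ex), 6280 to 8026 (HF), 2351 to 3130 (LF+CR), 3199 to 4361 (LF+Ex) and 2529 to 8516 (LF); 1 of 9 was at 0 in some libraries. The count was 6 of 9 again after rescaling (median 0.58) and 1 of 9 without the 3 shallowest libraries, miR-155-5p (median 0.58), where 6 of all 351 were called. The part of leukocytes in the miR-22-3p result was not tested. LF 1 and HF+CR 3 held the highest sums of their groups, and without both miR-22-3p was at 0.35 (limma adjusted p = 0.0417).
Erythroid miRNAs, such as miR-451a, had 0 of 5 called (median -0.24), and biliary and other epithelial miRNAs, the miR-200 family, 0 of 5 (median -0.19). Endothelial miRNAs had 1 of 4 higher, miR-126-3p at 0.36 (limma adjusted p = 0.0170), and stellate and mural miRNAs 1 of 6 higher, miR-214-3p at 0.94 (0.0411). Heart and skeletal muscle miRNAs had 1 of 2 tested members lower, miR-1a-3p at -1.37 (limma adjusted p = 0.0487), and summed to 8.33 to 153 RPM in a library. After rescaling 1 of 5 erythroid miRNAs was called lower and 0 of 4 endothelial ones were called; without the 3 shallowest libraries none of these 5 lists had a call, where 6 of all 351 miRNAs had one. In the endothelial and the stellate and mural lists, 1 call is near the share called over all miRNAs. In the heart and skeletal muscle list 1 of 2 is above that share, with both members below 0 (median -1.16). A list of 2 is too short to read further.

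Hepatocyte-enriched miRNAs had 0 higher and 1 lower of 9 tested on HF diet averaged over the regimens, miR-101a-3p at -0.43 (limma adjusted p = 0.0209), with all 9 below 0 (median -0.13). A list of miRNAs tied to liver lipid and glucose metabolism had 4 higher and 2 lower of 23 tested (median 0.07), beside 18.5% of all 351 called, 56 higher and 9 lower. Higher were miR-33-5p, which represses cholesterol export, at 0.56 (limma adjusted p = 0.0209), the p53 target miR-34a-5p at 0.91 (0.0435), the lipid regulator miR-27b-3p at 0.32 (0.0170) and miR-223-3p, which also stands among the leukocyte miRNAs. Lower were miR-29c-3p, a repressor of collagen genes, at -0.26 (0.0487) and miR-130a-3p at -0.31 (0.0487). After rescaling the lipid and glucose list had 1 higher and 4 lower (median -0.14) and the hepatocyte list 0 higher and 2 lower; without the 3 shallowest libraries limma called 0 in either list and 6 of all 351. Rescaled, miR-33-5p was at 0.36 (limma adjusted p = 0.132), miR-34a-5p at 0.70 (0.0659) and miR-27b-3p at 0.12 (0.439), like miR-22-3p still above 0 and no longer called.

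The tested miRNAs most like miR-22-3p across the 18 libraries, by Pearson's r of log2(RPM + 1), were miR-151-5p at 0.861, miR-28a-5p at 0.848, miR-139-5p at 0.845, miR-450a-5p at 0.827 and miR-690 at 0.758. Over deviations from the group means their r was 0.767, 0.811, 0.798, 0.708 and 0.770 in the same order, so the likeness was present within groups too. On HF diet averaged over the regimens 18.5% of all 351 miRNAs were called. There miR-151-5p rose by 0.50 (limma adjusted p = 0.0170) and miR-28a-5p by 0.39 (0.0327). Not called were miR-139-5p at 0.34 (0.0786), miR-450a-5p at 0.32 (0.0637) and miR-690 at 1.47 (0.0654). Both calls were lost after rescaling, with miR-151-5p at 0.29 (limma adjusted p = 0.105) and miR-28a-5p at 0.19 (0.298).
miR-22-5p had other companions. Its highest r were with miR-1968-5p at 0.772, miR-15a-5p at 0.770, miR-17-5p at 0.762, miR-1948-5p at 0.762 and miR-140-5p at 0.755, and within groups these were 0.291, 0.577, 0.588, 0.493 and 0.446. All of these were picked as the highest of 350 and share the libraries' depth and totals, so they are a description only. In HF+Ex against HF livers miR-22-5p was at -0.39, and 0.855% of all 351 miRNAs were called. Of these 5 companions 1 passed there: miR-17-5p of the Mir17hg cluster fell by 0.90 (limma adjusted p = 0.0235). The others were miR-140-5p at -0.52 (0.352), miR-15a-5p at -0.33 (0.600), miR-1968-5p at -0.27 (0.841) and miR-1948-5p at -0.21 (0.926). On HF diet averaged over the regimens 0 of the 5 passed in limma, beside 18.5% of all 351, and miR-17-5p was at 0.00 (adjusted p = 0.977).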

How the data were processed

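The deposited values are RPM, made by the authors, for 758 mature miRNAs in 18 liver small RNA libraries, per the file headers; the submitters' processing notes name build mm10. The aligner, counter, annotation release and filters: not given in the sources used here. Taking the lowest value of a library as 2 reads made 100% of values whole within 0.001 reads. Groups came from sample titles. Tests used limma 3.58.1 in R 4.3.3 on log2(RPM + 1), filter 5 RPM in at least 3 libraries (351 kept, 407 not tested), all 18 libraries, trend on, robust off, Benjamini-Hochberg over 351 miRNAs or 100 arm pairs. The fits were tested on simulated data for HF against LF only, with differences larger than those called for miR-22. That trial does not cover the calls reported here. Intervals used scipy 1.17.1, and figures matplotlib 3.10.9 in Python 3.11.15. Of the 12 comparisons, HF+CR against LF+CR and HF+Ex against LF+Ex were added after values were seen. Members, 9 lists and named miRNAs (list members, neighbours in level and ratio, the 5 most alike per arm) were chosen with earlier results of these data known; 6 list names were matched through older names. Alternatives changed the pseudocount (5), the filter (none, 50 RPM), scaling, groups in the fit, replicate block, trend and libraries. Leaving out LF 1 and HF+CR 3 or the 3 shallowest libraries, rescaling the lists, and limma's voom weights, were chosen after seeing the data. Replicates of a group differed beyond sampling noise (chi-square per degree of freedom at least 138).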

Additional observations from a re-analysis of the deposited data

How the results depend on the processing

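Of the alternative values computed, 613 kept direction and side of the threshold, 31 lost a call, 1 gained one and 33 changed sign. None of the sign changes was in a called result, and the cause was not tested. Most of the 613 were of results not called in either fit. The call of miR-22-3p on HF diet averaged was kept in 4 of 18 fits with 1 library left out and in 4 of 10 other alternatives. That of miR-22-5p in HF+CR against LF+CR was kept in 2 of 6 and in 3 of 10. For miR-22-3p on HF diet averaged over regimens the call was lost with no filter, where more miRNAs are adjusted over (0.32, limma adjusted p = 0.0934), no intensity trend (0.32, 0.0620), the replicate block (0.32, 0.0609), size-factor rescaling (0.11, 0.537), voom weights (0.31, 0.0552) and without the 3 shallowest libraries (0.30, 0.0894). For miR-22-5p in HF+CR against LF+CR it was lost with no filter (0.56, 0.0688), no trend (0.56, 0.0558), the compared groups alone (0.56, 0.217), a pseudocount of 5 (0.55, 0.0521), rescaling (0.23, 0.502), voom weights (0.56, 0.0537) and without the 3 shallowest (0.57, 0.159). Rescaling turned miR-22-3p to -0.17 for the CR effect HF minus LF and 0.28 for LF+CR against LF, and miR-22-5p to -0.060 for HF diet averaged and 0.025 for HF+CR against HF. Leaving out LF 1 and HF+CR 3 turned miR-22-5p to 0.11 for HF+CR against HF and the arm ratio to -0.016 for HF+CR against LF+CR; without the 3 shallowest the ratio for the Ex effect HF minus LF was -0.0049.

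With 1 library left out, miR-22-3p ranged from 0.25 to 0.37 for HF diet averaged, 0.49 to 0.68 for HF+CR against LF+CR (called without HF+CR 3, limma adjusted p = 0.0482), -0.27 to 0.11 for HF+Ex against LF+Ex, -0.060 to 0.081 for CR averaged, -0.013 to 0.27 for the CR effect HF minus LF, -0.066 to 0.21 for HF+CR against HF and -0.13 to 0.052 for LF+CR against LF. miR-22-5p ranged from 0.43 to 0.70 for HF+CR against LF+CR and -0.17 to 0.11 for HF+CR against HF. The arm ratio ranged from -0.11 to 0.015 for Ex averaged, -0.051 to 0.205 for the Ex effect HF minus LF, -0.027 to 0.22 for HF+CR against HF, -0.13 to 0.12 for HF+Ex against HF, -0.19 to 0.035 for LF+Ex against LF and -0.13 to 0.10 for HF+CR against LF+CR. Replicate numbers did not pair the libraries: 14 of 45 same-number correlations were over 0.1, and a library correlated best with its own number in 32 of 90 cases. The replicate block called 55 miRNAs for HF diet averaged, against 65 without it, and 48 against 37 for HF+CR against LF+CR. The count for HF diet averaged was 6 without the 3 shallowest libraries, and that for HF+CR against LF+CR was 13 with no filter, 4 with the compared groups alone, 16 without the 3 shallowest and 24 with voom weights. With 1 library left out these counts ranged from 37 (without LF 2) to 91 and from 3 to 51, that for LF+CR against LF from 5 to 40 and that for HF+Ex against LF+Ex from 2 to 16. The count for HF+Ex against LF+Ex, 29, was 18 with no filter and 59 with the compared groups alone; that for LF+CR against LF, 22, was 14 after rescaling and 0 with the compared groups alone; that for CR averaged, 23, was 8 and 0, and with 1 library left out it ranged from 0 (without HF 2) to 78 (without HF+CR 3). That for HF+CR against HF, 0, was 9 without the 3 shallowest, 25 without LF 1 and HF+CR 3, and up to 22 with 1 library left out (without HF+CR 3). The planned edgeR and DESeq2 fits on recovered reads were not run.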
